A study of Aedes aegypti with 7 samples.

Results

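The regions described here are the AGO1 CLIP-seq peaks that the authors' peak table assigned to repeated DNA of the yellow fever mosquito, Aedes aegypti. They were found by 1 rule, an annotation class of repeatmask_aedes or repeatmasker, which uses no count. The rule took 5658 of the 100836 peaks in the table, 5101 from repeatmask_aedes and 557 from repeatmasker. The table gave a repeat name to every one of them, and 1599 different names occurred.

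In CLIP-seq, ultraviolet light links a protein to the RNA it touches, an antibody pulls the protein down and the attached RNA is sequenced. Argonaute-1 (AGO1) is the insect protein that carries microRNAs (miRNAs) to messenger RNAs, pairing mainly through the seed at bases 2 to 8 of the miRNA. Transposons, the mobile elements that make up much of the mosquito's repeated DNA, are silenced chiefly by other small RNA pathways, in which Piwi proteins and Argonaute-2 take the place of AGO1. LTR retrotransposons (Gypsy, BEL and Copia) and non-LTR retrotransposons copy themselves through an RNA. SINEs are short retroelements that borrow the machinery of others, and MITEs are short relics of DNA transposons.

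The tissue was the fat body, the store of nutrients in insects and, in blood-fed females, the source of yolk proteins. All libraries came from adult females of the UGAL/Rockefeller strain, and the CLIP tissue was irradiated with 900 mJ/cm2. At 72 h post eclosion (72 h PE), unfed females 3 or 4 days old were sampled. At 24 h post blood meal (24 h PBM), cage mates of the unfed females were sampled after they had taken blood, so the blood meal cannot be told apart from the greater age. Each time has 3 libraries, which the series' design text calls independent biological replicates. No library made without the AGO1 antibody was analysed here, so no background for the pull-down can be given.

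Out of 201 predictions that were analysed, 3 predicted miRNA precursors overlapped repeat peaks on the same strand. Their mature sequences are shown because they share bases with a repeat peak. The authors made these predictions with miRDeep2 on reads pooled over the small RNA libraries. The seed, bases 2 to 8, is in capitals. The first lies in a peak named R=851, the second in one named R=577 and the third in one named fam_55. The last line is another prediction, supercont1.792_12324, which has the seed of the third but no peak.
supercont1.394_40541: aUAAGUGGggcaaagacacca
supercont1.7_42306: uUCCGCAAauugucgaacaacc
supercont1.97_31790: uUCCAGGUgggauuuaucugau
supercont1.792_12324: uUCCAGGUgggaguugucugaua

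The precursor supercont1.394_40541 spans supercont1.394:969698-969755 on the plus strand of AaegL3, and its R=851 peak at 969734-969757 held all 21 bases of the mature sequence. That mature sequence had 1152 pooled small RNA reads, with a miRDeep2 score of 2.1, but the peak had no count at 72 h PE and 2, 1 and 0 counts in replicates 1, 2 and 3 at 24 h PBM. The peak in supercont1.97_31790, at supercont1.97:2118006-2118028, had the same start and end as the mature sequence. Its mature sequence had 1299 reads, with a miRDeep2 score of 1.1, while the peak had 1 count in all, in replicate 2 at 72 h PE. The R=577 peak at supercont1.7:2373191-2373212 held 21 of the 22 bases of its mature sequence and had 1 count, in replicate 1 at 24 h PBM. That mature sequence had 27 reads, with a miRDeep2 score of 1.2. Another overlap was on the opposite strand, where an R=372 peak touched no base of the mature sequence of supercont1.41_30225. At 1 to 3 counts, none of these peaks allows a comparison between the times. None of the 11 repeat peaks with 100 or more counts overlapped a prediction that was analysed. Of all 201 predictions, 24 had a peak of any class on their strand.

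Every repeat peak lay on the plus strand of its supercontig. The same held for 2349 peaks of the authors' tefam class, a separate transposon annotation that the rule does not take, for 301 tandem repeat (trf) peaks and for 148 low complexity (dust) peaks. Over all classes, 49865 peaks lay on the plus strand and 50971 on the minus strand, and coding peaks split into 13447 and 13485. Peaks with no annotation leaned the other way, 17944 plus against 25661 minus. In the table, repeat classes were thus given on the plus strand alone, and peaks on the minus strand of a repeat cannot be identified from the table. No repeat peak, and none of the peaks with no annotation on either strand, lay inside the span of a gene's peaks on the same strand. Such a peak may have been given a gene class instead, so this absence cannot be read as a trait of repeat peaks. On the opposite strand, 233 repeat peaks (4.12%) lay inside such a span, against 3.74% of plus-strand and 3.78% of minus-strand peaks with no annotation.

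The plus-strand peaks given to repeats took a small share of what AGO1 pulled down. Any repeat peaks on the minus strand, or given a gene class, would add to that share. The mean shares before and after blood differed by less than the SD between replicates. The libraries held 83810, 107245 and 69424 counts in replicates 1, 2 and 3 at 72 h PE, and 132758, 90568 and 91903 at 24 h PBM. Repeat peaks held 2254, 2401 and 1388 of these counts at 72 h PE and 3431, 2151 and 1654 at 24 h PBM, 13279 in all. As a share of the library, that was 2.69% (95% Wilson interval 2.58 to 2.80), 2.24% (2.15 to 2.33) and 1.999% (1.90 to 2.11) at 72 h PE. At 24 h PBM it was 2.58% (2.50 to 2.67), 2.38% (2.28 to 2.48) and 1.80% (1.72 to 1.89). These intervals cover counting error only. At both times replicate 1 was highest and replicate 3 lowest, and the times overlapped throughout. The mean share was 2.31% ± 0.350 (SD, n = 3) at 72 h PE and 2.25% ± 0.406 (SD, n = 3) at 24 h PBM, a difference of -0.0561 percentage points (two-sided exact permutation p = 0.9, where 0.1 is the smallest p that 3 against 3 can give). Within same-numbered replicates the exact sign-flip p was 0.75, with 0.25 the smallest possible. The tefam class held 0.777% of counts at 72 h PE and 0.769% at 24 h PBM. Ribosomal RNA ran from 5.37% to 5.91% at 72 h PE and from 3.33% to 6.96% at 24 h PBM, and it too was highest in replicate 1 and lowest in replicate 3 at 24 h PBM. Its part in the replicate order of the repeats was not tested.

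**Figure D1:**
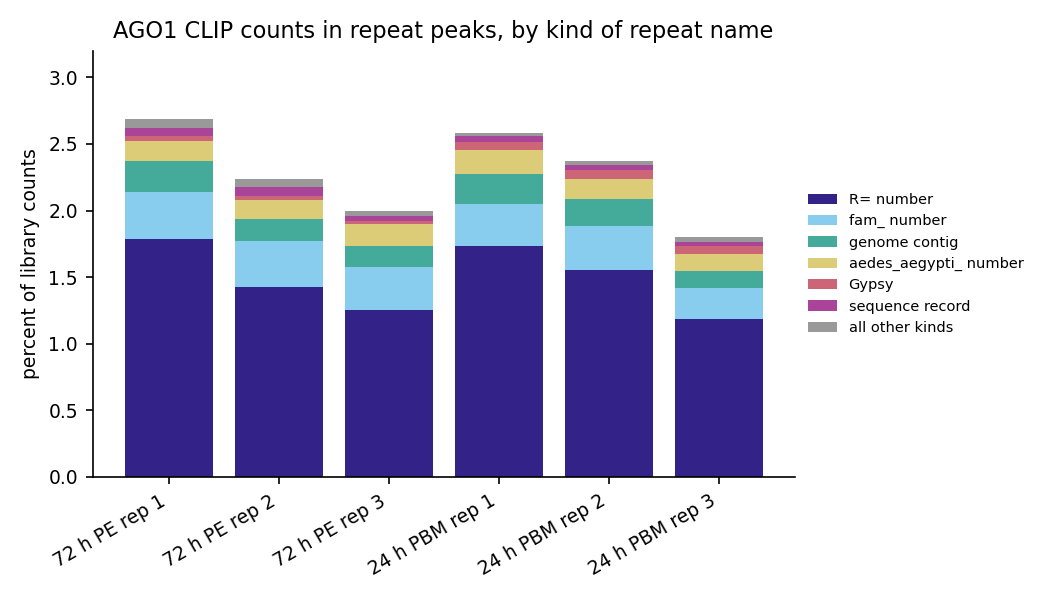
Percent of each library's AGO1 CLIP counts (y axis) that lay in repeat peaks, for the 3 libraries at 72 h PE and the 3 at 24 h PBM, stacked by kind of repeat name. The bars run from 1.80% to 2.69%, with replicate 1 highest and replicate 3 lowest at both times, and names of the form R= number are the largest block in every bar.

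Repeat peaks were thinly covered. Of the 5658, 3892 (68.8%) had a single count over the 6 libraries, against 55.5% of all other peaks. The tefam peaks were like the repeats in this, at 69.8%. Each library had counts in 813 to 1451 of the repeat peaks, 5010 had counts in 1 library only and 34 had counts in all 6. Only 77 reached 10 counts and 11 reached 100. Over all 100836 peaks, 79239 had counts in 1 library only and 2094 in all 6, while 5074 reached 10 counts and 597 reached 100. The 10 largest repeat peaks held 3081 counts, 23.2% of the repeat counts.

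Repeat peaks were also short, and unlike peaks on messenger RNA they stayed short as their counts went up. Their median length was 19 bases (quartiles 16 and 24), against 22 (18 and 31) for all other peaks. The shortest repeat peaks, of 15 bases, numbered 827 (14.6%), a length that 8.43% of the other peaks had, and 76.0% of repeat peaks were at most 24 bases long. Among peaks of 10 to 99 counts, the median was 19 bases for 66 repeat peaks, 46 for coding peaks, 35.5 for peaks in 3′ untranslated regions and 23 for miRNA precursor peaks. Among peaks of 100 or more counts, the 11 repeat peaks had a median of 22 and a range of 15 to 24 bases. Coding peaks of that depth had a median of 59 (203 peaks) and miRNA precursor peaks one of 24 (56 peaks). The tefam peaks were like the repeats, with a median of 20 bases at 10 to 99 counts. A second group of repeat peaks, 255 (4.51%), was exactly 46 bases long, a length that 5.65% of the other peaks had too. These lengths are a description with no test, since peaks of the same libraries are not replicates.

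**Figure D2:**
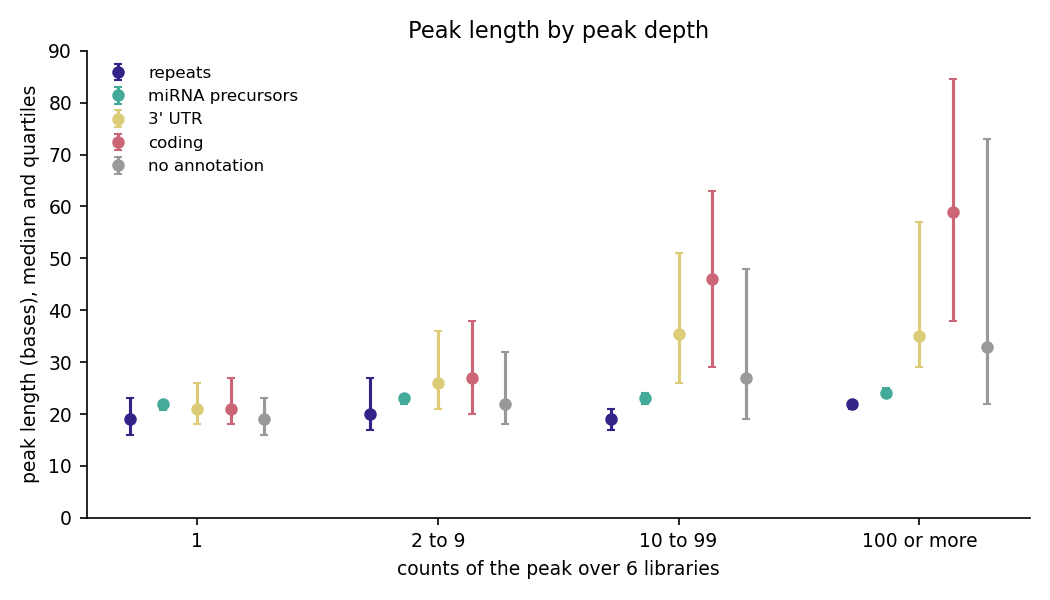
Peak length in bases (y axis, median as a point and quartiles as bars) against the counts of the peak over 6 libraries (x axis, 4 bins), for repeat peaks and 4 other classes. Coding and 3′ untranslated peaks lengthened with depth, to medians of 59 and 35 bases at 100 or more counts, while repeat peaks stayed at medians of 19 to 22 and miRNA precursor peaks at 22 to 24.

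The 10 repeat peaks with most counts were single short peaks with no other peak within 200 bases; the nearest neighbour was 225 to 65441 bases away. All coordinates are on AaegL3 supercontigs, plus strand. Fold changes come from edgeR's quasi-likelihood test, with trimmed-mean (TMM) scaling and Benjamini-Hochberg adjustment at 0.05 over all 948 peaks that passed the filter on low counts. Of the 5658 repeat peaks 13 passed that filter, and 0 were called in either direction, where 36.2% of all tested peaks were called, 27.1% higher and 9.07% lower after blood. None of the 13 had an unadjusted p under 0.05, DESeq2 called 0 as well, and the lowest adjusted p was 0.218. After TMM scaling, the 3 libraries of one time lay wholly above those of the other in 1 of the 13, against 45.9% of all tested peaks. The median log2 change of the 13 was 0.33, beside 0.20 over all tested peaks. With library totals in place of TMM, the median over all tested peaks was -0.06 and that of the 13 was 0.07, so log2 changes here are read against a median that the scaling moves by more than 0.1.

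The largest was a 15-base R=590 peak at supercont1.440:681714-681729, with 77, 89 and 77 counts at 72 h PE and 107, 123 and 109 at 24 h PBM. As CPM (counts per 1000000 counts of the library after TMM scaling), its levels were 849, 758 and 1005 at 72 h PE and 890, 1418 and 1345 at 24 h PBM, and the lowest library after blood fell within the range before it. The log2 change was 0.48 ± 0.39 (SE; edgeR adjusted p = 0.42).

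The second was the 24-base peak of the repeat aedes4kgr2k10pd1-AAGE01000102_26104bp-TE at supercont1.241:1608129-1608153. It had 88, 91 and 55 counts at 72 h PE and 144, 98 and 38 at 24 h PBM, a log2 change of 0.19 ± 0.42 (SE; edgeR adjusted p = 0.804). Replicate 3 was the lowest at both times, and without replicate 1 at 24 h PBM the log2 change was -0.13.

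The third, 22 bases of aedes_aegypti_2415_6 at supercont1.47:1504532-1504554, was the only peak of that name and the only 1 of the 13 whose times did not overlap in CPM. It had 44, 83 and 58 counts at 72 h PE and 98, 66 and 71 at 24 h PBM, or 485, 707 and 757 CPM against 815, 761 and 876. Its log2 change of 0.33 ± 0.39 (SE) did not pass the test (edgeR adjusted p = 0.613).

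The name R=250 supplied 2 of the 10. The R=250 peak at supercont1.123:784774-784796 had 54, 53 and 29 counts at 72 h PE and 144, 54 and 21 at 24 h PBM, a log2 change of 0.55 ± 0.49 (SE; edgeR adjusted p = 0.464). The R=250 peak at supercont1.19:2896342-2896365 had 26, 25 and 12 counts and then 108, 25 and 13, a log2 change of 1.05 ± 0.61 (SE; edgeR adjusted p = 0.218). In both, replicate 1 at 24 h PBM stood above the other 5 libraries, and the other two libraries at that time lay within or near the range at 72 h PE. Without that library the log2 changes of both turned, to -0.20 and -0.053. Copies of 1 repeat can share reads, and the sources used here do not say how such reads were assigned.

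The R=2532 peak at supercont1.221:629881-629902 and the R=1384 peak at supercont1.620:194101-194123 had the same shape of values. R=2532 had 26, 47 and 27 counts at 72 h PE and 103, 52 and 16 at 24 h PBM. R=1384 had 44, 40 and 12 and then 120, 31 and 6, so that its 24 h PBM libraries spanned 74.1 to 998 CPM. Neither passed the test, with log2 changes of 0.68 ± 0.52 and 0.55 ± 0.65 (SE; edgeR adjusted p = 0.388 and 0.608). Without replicate 1 at 24 h PBM, the log2 change of R=2532 was 0.12 and that of R=1384 turned to -0.73.

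The other 3 of the 10 were smaller. The fam_365 peak at supercont1.91:39057-39078 had 27, 41 and 23 counts at 72 h PE and 63, 33 and 7 at 24 h PBM. The peak of aedes4kgr2k10pd1-AAGE01003872_12216bp-TE at supercont1.167:943563-943585 had 40, 14 and 14 and then 42, 23 and 22. The R=171 peak at supercont1.213:428118-428137 had 25, 19 and 11 and then 46, 22 and 5. Their log2 changes were 0.08, 0.26 and 0.29, each smaller than its SE. Leaving out replicate 1 at 24 h PBM turned fam_365 to -0.52 and R=171 to -0.40, and leaving out replicate 2 at 72 h PE turned the contig repeat to -0.091.

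Replicate 1 lay above replicate 3 at both times in 6 of the 13 tested repeat peaks, against 25.7% of all tested peaks. The lowest log2 change of the 13 was that of an R=530 peak at supercont1.84:1377981-1377998, named after its values were seen, with 19, 10 and 11 counts at 72 h PE and 1, 4 and 15 at 24 h PBM (log2 change -0.93 ± 0.74, SE; edgeR adjusted p = 0.409). It was called lower only when replicate 3 at 24 h PBM was left out, the library that held 15 of its 20 counts after blood.

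**Figure D3:**
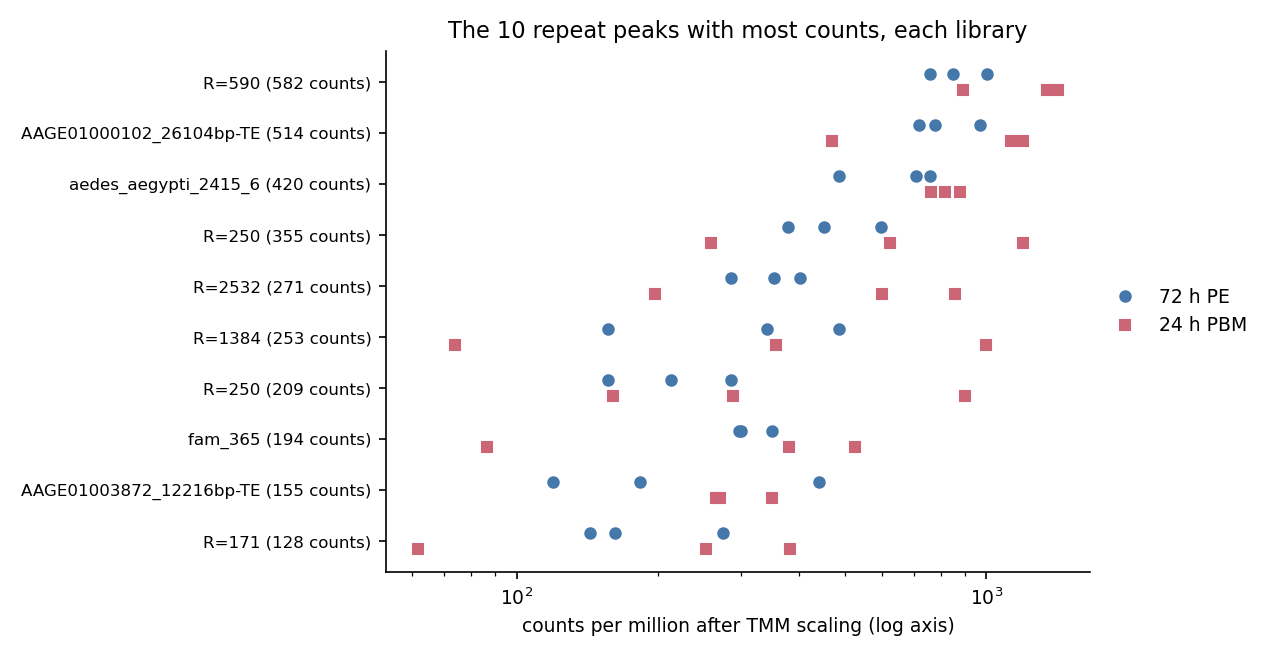
CPM after TMM scaling (x axis, log scale) of the 10 repeat peaks with most counts, by repeat name and total count (y axis), with a circle for each library at 72 h PE and a square for each at 24 h PBM. After this scaling the times overlap in 9 of the 10 and part in aedes_aegypti_2415_6, whose squares sit at 761 to 876. Without it they overlap in that peak too. The 24 h PBM libraries of R=1384 spread from 74.1 to 998.

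Counts were also summed over all peaks of the same repeat name, since copies of a repeat may share reads. After this summing, 923 features passed the filter, 19 of them repeat names of the 1599. One of the 19 was called, Gypsy44-I_AG, and it was higher after blood, where 19.4% of all tested features were called 10.3% higher and 9.1% lower. DESeq2 called the same 1. The median log2 change of the 19 was 0.48, beside 0.16 over all features. With library totals the median over all features was -0.32 and that of the 19 was 0.04. After TMM scaling the times did not overlap in 5 of the 19, all higher after blood, against 36.3% of all features. With library totals, the times overlapped in R=590, aedes_aegypti_2415_6 and R=544, which are among the 5. They stayed apart in Gypsy44-I_AG and R=367.

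Gypsy44-I_AG carries the name of a Gypsy LTR retrotransposon, where I stands for the internal, protein-coding part of the element and AG for Anopheles gambiae, the mosquito in which the family was described. Its 34 peaks on 5 supercontigs held 6, 0 and 0 counts at 72 h PE and 36, 44 and 38 at 24 h PBM. In CPM, that was 65.1, 0 and 0 before blood and 305, 549 and 539 after, so all 3 libraries after blood lay above all 3 before it. The log2 change was 4.43 ± 0.80 (SE, edgeR adjusted p = 5.12e-04), and in DESeq2 it was 4.47 ± 1.48 (SE, DESeq2 adjusted p = 0.0192). It passed the filter on low counts through the 24 h PBM libraries alone. Of its 34 peaks, 28 lie at a locus, described below, that had no count at 72 h PE. Those peaks are in the table through the 24 h PBM reads that the test compares. The adjusted p values are therefore given as description and are no support for a change. All 6 counts at 72 h PE came from replicate 1, and the size of the change rests on single libraries there: without replicate 1, 2 or 3 at 72 h PE the log2 change was 8.43, 3.62 or 3.78, and the first of these is a fitted value against libraries at 0.

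Most of the other names were carried by 1 peak. That peak held 94.8% of the 614 counts of R=590, 92.8% of the 554 of aedes4kgr2k10pd1-AAGE01000102_26104bp-TE, 99.6% of the 272 of R=2532, 98.1% of the 158 of aedes4kgr2k10pd1-AAGE01003872_12216bp-TE and 98% of the 198 of fam_365. R=250 was less concentrated, with 59.8% of 594 counts in 1 of 16 peaks. Its counts were 88, 82 and 43 at 72 h PE and 262, 82 and 37 at 24 h PBM, again with replicate 1 after blood above the rest (log2 change 0.86 ± 0.48, SE; edgeR adjusted p = 0.247; 0.22 without that library).

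A few names were spread thinly over the genome instead. R=544 had the most peaks, 131 on 111 supercontigs, yet no more than 5 counts in any of them and 195 in all. Its counts were 31, 35 and 23 at 72 h PE and 44, 36 and 26 at 24 h PBM, a log2 change of 0.45 ± 0.42 (SE; edgeR adjusted p = 0.502). R=793 had 69 peaks and 118 counts (27, 22 and 9, then 21, 25 and 14), and R=130 had 44 peaks and 155 counts (29, 25 and 11, then 46, 24 and 20), and neither passed the test. R=1147 had 12, 22 and 16 counts and then 15, 26 and 37, a log2 change of 0.97 ± 0.53 (SE; edgeR adjusted p = 0.242). The name R=367, chosen after its values were seen as the only name besides Gypsy44-I_AG with an unadjusted p under 0.05, had 8, 7 and 5 counts over 46 peaks and then 17, 11 and 14 (log2 change 1.26 ± 0.56, SE; edgeR adjusted p = 0.142). Of the 1599 names, 657 had a single peak.

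**Figure D4:**
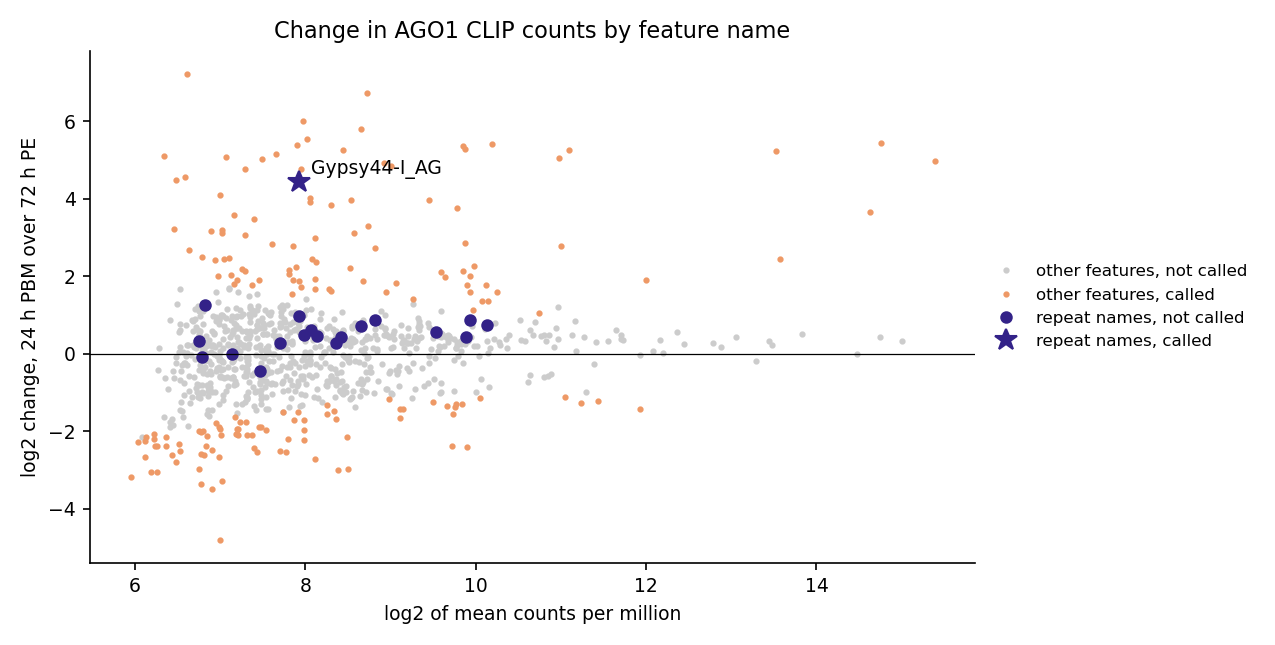
Log2 change in AGO1 CLIP counts from 72 h PE to 24 h PBM (y axis) against log2 of the mean CPM (x axis) for the 923 tested features, with repeat names in dark blue and other features in grey (not called) or orange (called). The other repeat names lie between -0.45 and 1.26, and Gypsy44-I_AG is the star at 4.43.

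By kind of name, most repeat counts belonged to names that give no family. Names of the form R= number held 8690 counts (65.4%) in 3931 peaks, and fam_ names held 1832 (13.8%) in 903 peaks. Names of genome contigs held 1075 counts in 204 peaks and aedes_aegypti_ names 895 in 252. Among names that give a family, Gypsy held 266 counts in 119 peaks, non-LTR elements 101 in 39, BEL 57 in 41, MITEs 51 in 35, SINEs 28 in 13 and Copia 14 in 10. With each kind summed to 1 feature, 8 kinds passed the filter and 1 was called, Gypsy, higher after blood, where 19.5% of the 912 features tested were called 10.4% higher and 9.1% lower. After TMM scaling the times did not overlap in 2 of the 8, Gypsy and aedes_aegypti_ names, against 36.7% of all features. With library totals the times overlapped in the aedes_aegypti_ names, whose mean share was 0.157% before blood and 0.152% after. They stayed apart in Gypsy.

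Gypsy peaks held 30, 30 and 13 counts at 72 h PE and 79, 60 and 54 at 24 h PBM. In CPM, that was 325, 229 and 150 before blood and 671, 759 and 764 after, without overlap. The log2 change was 1.63 ± 0.42 (SE; edgeR adjusted p = 0.00949). As a percent of all counts, the Gypsy share was 0.0275 ± 0.00854 before and 0.0615 ± 0.00413 after (SD, n = 3; two-sided exact permutation p = 0.1, the smallest possible, and 0.75 after Benjamini-Hochberg adjustment over 15 shares). The call was lost with library totals (log2 change 1.15, edgeR adjusted p = 0.0504), with no filter on low counts (1.565, edgeR adjusted p = 0.324) and without replicate 2 or 3 at 72 h PE (1.495 and 1.25, edgeR adjusted p = 0.0935 and 0.124). It was also lost once the single locus described next was left out (0.23 ± 0.47, edgeR adjusted p = 0.763).

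The other LTR families gave no call. BEL peaks had 11, 8 and 5 counts at 72 h PE and 8, 14 and 11 at 24 h PBM (log2 change 0.72 ± 0.60, SE; edgeR adjusted p = 0.447). Copia had 2, 2 and 3 counts and then 3, 2 and 2, too few for the count test. Among the kinds without a family, the log2 changes were 0.48 for R= names, 0.26 for fam_ names, 0.48 for genome contigs and 0.44 for aedes_aegypti_ names, with edgeR adjusted p of 0.285, 0.589, 0.392 and 0.425. With library totals these log2 changes were 0.0031, -0.22, 0.016 and -0.047, in the same order. Names of single sequence records, with 266 counts, had a log2 change of -0.11 (edgeR adjusted p = 0.868).

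The short and non-LTR elements had lower mean shares of counts after blood, without passing a test. Non-LTR peaks had 18, 44 and 5 counts at 72 h PE and 8, 13 and 13 at 24 h PBM, a log2 change of -0.56 ± 0.61 (SE; edgeR adjusted p = 0.552). Of these, 33 came from 1 library and 1 element: nonltr16AAGE01016048_7231 had 7, 33 and 3 counts and then 2, 4 and 7, with 54 of its 56 in a single peak. Juan-A, a non-LTR retrotransposon of Aedes aegypti, had 4, 2 and 1 counts and then 0, 0 and 1, with its 8 counts in 8 peaks. SINEs had 10, 5 and 4 counts and then 5, 0 and 4, of which polyAGecko-con63 gave 8, 5 and 0 and then 2, 0 and 0. The SINE feilai-B-cons went the other way, with 2, 0 and 1 and then 3, 0 and 2. MITEs had 14, 7 and 12 counts and then 9, 4 and 5, of which PonyB_Consensus gave 4, 0 and 7 and then 4, 1 and 0. The exact permutation p for the shares of non-LTR elements, SINEs and MITEs were 0.3, 0.1 and 0.2. SINEs and MITEs were too thin for the count test. The elements named in this paragraph were chosen after their values were seen.

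Most of the Gypsy44-I_AG signal came from 1 place in the genome. Repeat peaks no more than 2000 bases apart were joined into loci, a step chosen after seeing the data, which gave 5291 loci, 5058 of them with a single peak and 13 with 5 or more. The locus with most peaks lay at supercont1.13:4014952-4019535 and held 30 repeat peaks, 28 of the 34 of Gypsy44-I_AG and 1 each of Gypsy45-I_AG and Gypsy7-I_AG. It had 0, 0 and 0 counts at 72 h PE and 35, 44 and 37 at 24 h PBM. As CPM of the library total, without TMM scaling, the 24 h PBM values were 264, 486 and 403, highest in replicate 2, and every library before blood was at 0. Its peaks have no count at 72 h PE, so they are in the table through 24 h PBM reads alone, and since the locus was chosen after seeing the data no test is given for it. A count of 0 over the group at 72 h PE allows up to 3 counts over that group, or 11.5 CPM of its summed libraries. Set against that limit, the 368 CPM over the group at 24 h PBM, taken as exact, are 32.0-fold higher. That ratio covers counting error at 72 h PE alone, and neither counting error at 24 h PBM nor the spread between libraries. Because the peaks are in the table through 24 h PBM reads, it describes the locus and is no support for a change.

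Within the locus the counts were spread over its length. The largest peak, at 4017143-4017183, had 6, 4 and 6 counts at 24 h PBM. The next, at 4016772-4016821, had 6, 7 and 1, and the third, 21 bases at 4018124-4018145, had 5, 4 and 4. Of the 30 peaks, 6 had counts in all 3 libraries, 7 in 2 and 17 in 1. Peak lengths ran from 16 to 95 bases with a median of 30, longer than the median of 19 over all repeat peaks and holding the longest of them.

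The 6 Gypsy44-I_AG peaks elsewhere had 6, 0 and 0 counts at 72 h PE and 2, 0 and 2 at 24 h PBM. All Gypsy peaks outside the locus, 89 with 30 names and those 6 among them, had 30, 30 and 13 counts and then 44, 16 and 17. The locus with the next most peaks, 22 at supercont1.1:1219358-1226277, had 5, 5 and 5 counts and then 26, 2 and 4, so its counts after blood came mostly from replicate 1. The locus with the next most peaks after that, 13 at supercont1.910:166007-172619, had 10, 2 and 4 and then 2, 2 and 4. The name Gypsy15-I_AG, with 15 peaks in all, had 3, 5 and 4 counts and then 17, 2 and 3. Gypsy15-I_AG was named after its values were seen, and this name and these loci are given as values with no test.

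Peaks of other tissues' transcripts were looked at beside the Gypsy44-I_AG locus. Vitellogenin, the yolk precursor made by the fat body, had 430 to 1311 CPM of the library total at 72 h PE and 14560 to 26433 at 24 h PBM. Lipophorin had 0 to 14.4 and then 11.04 to 43.5, and hexamerin 18.6 to 158 and then 0 to 44.2. Of the markers of other tissues, trypsin (midgut) had 107 to 216 and then 37.7 to 196, troponin (muscle) 420 to 847 and then 610 to 979, and myosin heavy chain (muscle) 1016 to 1239 and then 957 to 2078. The 2 vitelline membrane genes, which belong to the ovary, had 0, 1 and 2 counts at 72 h PE and 9, 30 and 192 at 24 h PBM, so they too were higher in every library after blood. As CPM of the library total, the vitelline membrane genes had 0 to 28.8 and then 67.8 to 2089. The part of ovary tissue in the locus's counts was not tested, and in bulk tissue more cells of a type and more RNA per cell cannot be told apart.

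**Figure D5:**
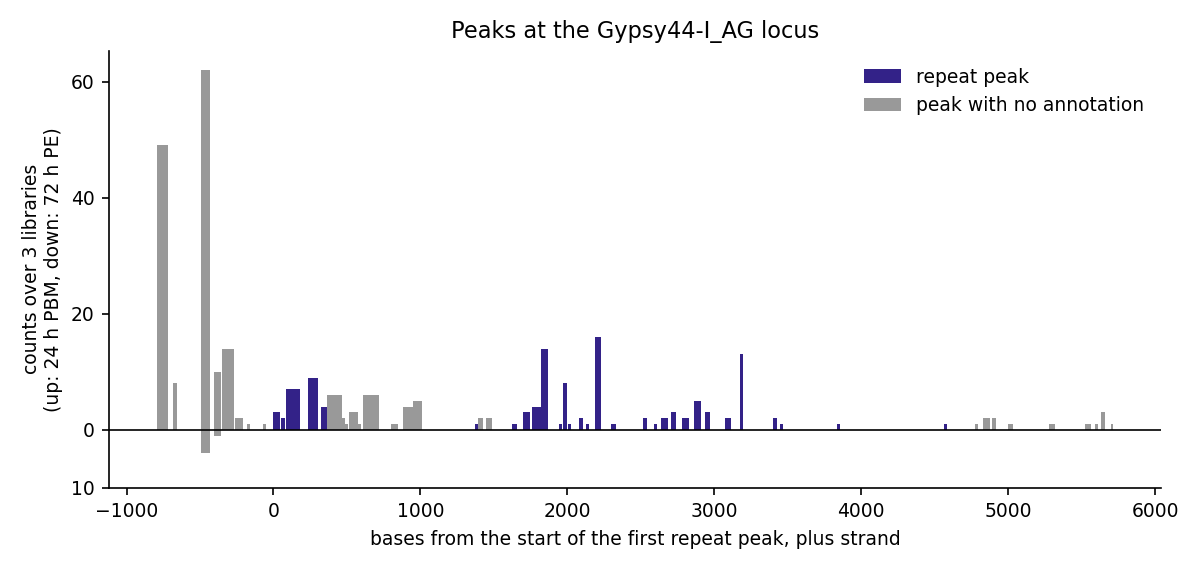
Counts of each plus-strand peak at the Gypsy44-I_AG locus over 3 libraries (y axis; upward for 24 h PBM, downward for 72 h PE) by distance in bases from the start of the first repeat peak (x axis), with repeat peaks in dark blue and peaks with no annotation in grey. The 30 repeat peaks have 116 counts at 24 h PBM and 0 at 72 h PE.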

How the data were processed

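The deposited CLIP-seq table holds the authors' raw counts for each peak of 1 shared peak set, a column per library, with no normalization. Positions refer to AaegL3 supercontigs and annotation to AaegL3.3, per the file headers; whether they start at 0 or 1 is not stated, and a peak's length is its end minus its start. Peak length in bases, strand, class and repeat name are the authors' own. The miRDeep2 score and read counts of predicted miRNAs were deposited by the authors, and 201 predictions were analysed. R 3.1.2, bedtools 2.17.0, TopHat2 2.0.14 and Bowtie2 2.2.3 are named in the submitters' processing notes without a role; the sources used here give neither the peak finder's settings nor the handling of reads with several matches. Peak sequences are not shown.

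Counts per peak, per repeat name and per kind of name were tested in edgeR 4.0.16 (limma 3.58.1, R 4.3.3), with TMM scaling, filterByExpr, the robust quasi-likelihood test and Benjamini-Hochberg adjustment at 0.05, always on the whole table of 6 libraries; DESeq2 1.42.0 was an alternative. The main edgeR fit was tested on simulated data with the same replicate spread for every feature, and the alternatives were not. All tests are two-sided. The SE given with an edgeR log2 change is that change, without its sign, divided by the square root of the test's F statistic. Kinds were read from the repeat name by fixed patterns. The names printed are the 10 repeat peaks and 15 repeat names with most counts, any called (up to 10 in each direction by adjusted p), and all kinds with at least 100 counts; others are said to be chosen after their values were seen. Members, lists and tests were chosen with earlier results of these data known.

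A count of 0 over the 3 libraries of a time allows up to 3 counts over them, 11.5 CPM at 72 h PE and 9.52 at 24 h PBM. Same-numbered libraries were somewhat alike: deviations from the group means correlated at 0.355, 0.207 and 0.289 between them (peaks). Between libraries of different number the correlations ran from -0.270 to 0.0187. Deviations of 3 libraries sum to 0 within a time, so these values are not independent. A pairing was thus read from the data and not from the labels, and the main tests use none. The alternatives were other scalings, no filter or at least 30 counts, DESeq2, a replicate block, vitellogenin peaks left out and each library left out.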

Additional observations from a re-analysis of the deposited data

Results flagged for a closer look

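Peaks with no annotation around the Gypsy44-I_AG repeat peaks, which no comparison above uses, held counts after blood and few or none before. On the plus strand before the first repeat peak, from 4014159 on, 8 such peaks had 0, 2 and 3 counts at 72 h PE and 37, 59 and 51 at 24 h PBM, 147 in all. Between the first and last repeat peak, 11 had no count at 72 h PE and 9, 18 and 6 at 24 h PBM, 33 in all. After the last, up to 4020665, 9 had none at 72 h PE and 5, 4 and 4 at 24 h PBM, 13 in all. With the repeat peaks, the 58 plus-strand peaks of the window had 5 counts before blood and 309 after, 86, 125 and 98 of them in replicates 1, 2 and 3. On the minus strand, 3 peaks had 3, 2 and 0 counts before blood and 0 after.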

How the results depend on the processing

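Gypsy44-I_AG as a name was called under all 13 alternatives (edgeR or DESeq2 adjusted p 1.71e-11 to 0.0226, log2 change 3.62 to 8.43 over single libraries left out). The alternatives reuse the same libraries, and the name passed the filter through the 24 h PBM libraries alone. Neither the alternatives nor the main fit are therefore support for a change. The number of called kinds of repeat was 1, and 0 with library totals or with no filter on low counts (Gypsy log2 change 1.15 and 1.57), and 0 to 1 over single libraries left out (1.25 to 1.83). Called repeat peaks ranged from 0 to 1 and called names from 1 to 2 over single libraries left out; the second name was R=1147 without replicate 1 at 24 h PBM (log2 change 1.45, edgeR adjusted p = 0.0434) and another R= name without replicate 3. The replicate block left 0 called repeat peaks and 1 called name and kind each, and changed no other call. The difference in repeat share was 0.0113 percentage points for repeatmasker alone and -0.222 to 0.171 over single libraries left out. Library totals turned the sign of the AAGE01000102 peak (-0.058), of fam_365 (peak -0.17, name -0.17), of R=544 (-0.022) and R=793 (-0.18), and of the fam_ (-0.22) and aedes_aegypti_ (-0.047) kinds; the replicate block turned the fam_365 peak (-0.11). Over single libraries left out, peak log2 changes ranged from -0.13 to 0.40 (AAGE01000102), -0.20 to 0.83 and -0.053 to 1.43 (R=250 on supercont1.123 and supercont1.19), -0.73 to 1.02 (R=1384), -0.52 to 0.40 (fam_365), -0.091 to 1.06 (AAGE01003872) and -0.40 to 0.70 (R=171). Name log2 changes ranged from -0.31 to 1.27 (R=1384), -0.074 to 0.78 (fam_365), -0.011 to 1.15 (AAGE01003872), -0.15 to 0.63 (R=793) and -1.55 to 0.14 (R=530), and sequence records from -0.47 to 0.13. The causes were not tested. Of 390 alternative values for 30 named results that were not called, 1 was called and 21 had the other sign. Depth limits all of this: 13 of 5658 repeat peaks had enough counts to be tested.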
